A study of Rattus norvegicus with 19 samples.

Results

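The libraries compared here were the 4 labelled Del/Dup (replicates 2 to 5) and the 4 labelled Del/+ (replicates 1 to 4), 8 of the 19 hippocampal RNA sequencing libraries of the series. All came from male Sprague Dawley rats, an outbred stock, 1 library per animal, and the groups differ in a chromosome 1 segment orthologous to human 16p11.2. Del/+ animals carry a chromosome with the *Sult1a1* to *Spn* segment deleted and a wild-type chromosome, hence 1 copy. Del/Dup animals, called pseudo-disomic in the study, carry the same deletion opposite a chromosome with the segment duplicated, hence 2 copies, and the question was what the duplicated chromosome restores on the deletion background. The 6 wild-type (wt) libraries, with 2 copies on 2 intact chromosomes, and the 5 Dup/+ libraries, with 3 copies, were in the same fit, and their levels and some tests against wt are given beside these. Every cell of the animal carries the rearrangement from birth, and the labels name no treatment. The animals were adult according to the study, and their age in days or weeks is not given in the sources used here.

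Deletion of 16p11.2 in humans is a recurrent cause of autism spectrum disorder and intellectual disability, and the reciprocal duplication is linked to autism and schizophrenia. The segment holds genes of kinase signalling, synaptic release, metabolism and chromatin, most of them expressed in neurons, and expression of a gene commonly follows its number of copies. The hippocampus is made up of pyramidal and granule neurons, interneurons and glia, and with bulk tissue fewer cells of a type and less RNA per cell cannot be told apart.

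The rearranged chromosomes were made in Sprague Dawley zygotes with Cas9 and a pair of guide RNAs. Their target sequences are shown because they set the ends of the segment whose copies differ between the groups, and their position was not mapped here.
cr595: gcaatctcacgtgtctgatgg
cr598: gtgacatcgtgaccctgctgg

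The Sult1a1 end of the segment is where the comparison changed from no difference to a doubling between adjacent named genes, so the start regions of these neighbours are shown. They are RefSeq windows of 300 bases on the assembly GRCr8, which is not the assembly of the counts, at chr1:190706063-190706362 for *Sult1a1* and chr1:190722258-190722557 for *Slx1b*, both on the minus strand. Capitals mark the 50 bases from the transcription start on.
Sult1a1: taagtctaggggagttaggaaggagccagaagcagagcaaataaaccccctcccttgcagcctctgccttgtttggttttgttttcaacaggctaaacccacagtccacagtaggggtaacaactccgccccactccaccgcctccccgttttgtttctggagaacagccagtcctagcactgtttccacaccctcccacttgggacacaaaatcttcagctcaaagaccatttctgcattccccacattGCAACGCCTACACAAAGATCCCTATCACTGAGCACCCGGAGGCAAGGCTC
Slx1b: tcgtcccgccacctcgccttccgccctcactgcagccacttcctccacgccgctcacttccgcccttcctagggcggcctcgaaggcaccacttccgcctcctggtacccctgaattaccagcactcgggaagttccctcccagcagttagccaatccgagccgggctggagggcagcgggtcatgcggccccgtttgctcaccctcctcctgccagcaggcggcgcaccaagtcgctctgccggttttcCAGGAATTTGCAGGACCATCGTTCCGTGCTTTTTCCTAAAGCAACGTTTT

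The *Sult1a1* window held 5 CG dinucleotides at a GC content of 52.3%, and 43.7% of all 33469 windows held as few or fewer. The *Slx1b* window held 23 at a GC content of 63.0%, and 19.5% of all windows held as many or more. The 19 of 36 listed interval genes with a window had a median of 17 CG dinucleotides, against 7 over all windows. Neither guide sequence was found in any window.

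Depth was 24458600 to 37964381 gene reads per library in Del/+ and 19464204 to 25480872 in Del/Dup, and the difference of the log2 total was -0.48 (two-sided exact permutation test over 70 splits, p = 0.0857, adjusted p over 3 measures = 0.257). Reads that aligned to several places (multi-mapped) made up 73.1%, 76.3%, 63.9% and 41.6% in Del/+ replicates 1 to 4 and 59.9%, 68.8%, 70.7% and 57.8% in Del/Dup replicates 2 to 5. Del/+ replicate 4 thus lay below all the others, and with it included 0.55 percentage points separated the means of the groups (exact permutation p = 1). This closeness hung on single libraries, so the test does not show equal shares. With Del/+ replicate 4 left out, Del/Dup minus Del/+ was -6.83 points (exact permutation p = 0.2). Dropping number 3 or 4 of the Del/Dup libraries gave -0.955 or -1.58 points, and dropping any other of the 8 gave 0.61 to 4.73. Results are therefore given also without Del/+ replicate 4. Of 11 hippocampal neuron markers, 10 were detected and tested, among them *Prox1* of granule cells at 76.8 to 189 counts-per-million (CPM) over the 8 libraries and *Neurod6* of pyramidal neurons at 189 to 248 CPM, while *Fibcd1* was at 0 reads. *Ttr*, the leading transcript of the choroid plexus, stood at 5.12, 2.38, 1126 and 81.5 CPM in Del/+ and at 1087, 96.3, 499.6 and 34.4 CPM in Del/Dup, so that its spread lay within both genotypes. The sum over the 11 choroid plexus markers spanned 8.0 to 1313 CPM in Del/+ and 45.1 to 1256 CPM in Del/Dup, and its part in the results below was not tested beyond the fits given for it.

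Expression of the interval genes in Del/Dup stood close to that of wt and well above that of Del/+. Of 36 genes listed for the interval, 35 were in the files and 29 passed the filter on low counts. The test between Del/Dup and Del/+ was passed by 23 of them, all higher in Del/Dup, at an adjusted p under 0.05. Over all genes tested, 0.175% passed in either direction and 0.168% were higher in Del/Dup. The median log2 fold change over the 29 tested genes was 0.92 (quartiles 0.86 and 1.03), against a median of -0.0014 over all 15440 tested genes. In 25 of the 29 the 4 Del/Dup and the 4 Del/+ libraries did not overlap, which held for 4.37% of all tested genes. As a median over the tested interval genes, the level was 53.0%, 48.4%, 46.7% and 48.8% of the wt mean in Del/+ replicates 1 to 4, a mean of 49.2% ± 2.69 (SD, n = 4). It was 93.7%, 99.0%, 96.5% and 95.4% in Del/Dup replicates 2 to 5, a mean of 96.1% ± 2.21 (SD, n = 4).

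**Figure D1:**
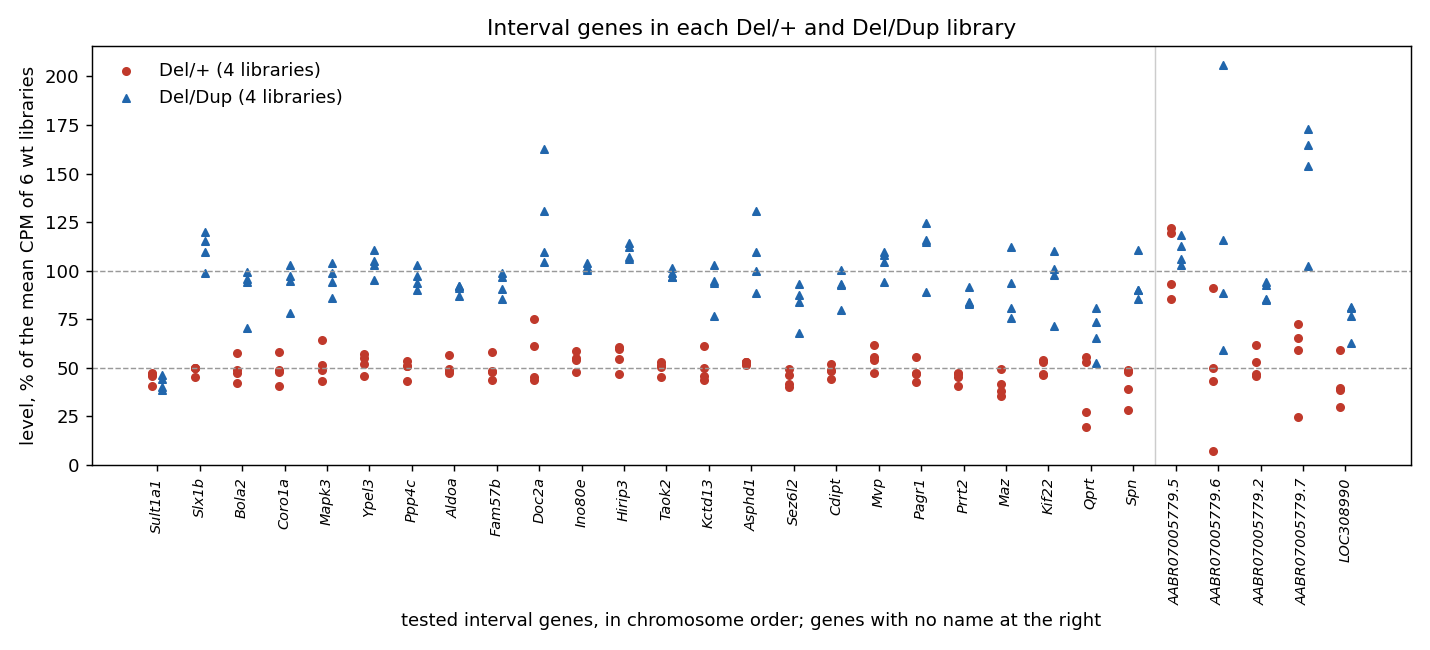
Level of each of the 29 tested interval genes in each library, as a percentage of the mean CPM of 6 wt libraries (y axis), with genes in chromosome order and the genes with no name at the right (x axis). Red points are the 4 Del/+ libraries and blue triangles the 4 Del/Dup libraries. Del/+ lies near 50% and Del/Dup near 100% (dashed lines) for most genes, while *Sult1a1* stays low in both and AABR07005779.5 lies near the wt level in both.

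Genes of kinase and ubiquitin signalling were first examined. *Mapk3*, which encodes the kinase ERK1, stood at 60.9, 46.3, 48.5 and 41.0 CPM in Del/+ replicates 1 to 4 and at 81.2, 98.5, 93.8 and 89.1 CPM in Del/Dup replicates 2 to 5. Each Del/Dup library lay above each Del/+ library (log2 fold change 0.88 ± 0.09 SE, adjusted p = 3.1e-06), and the wt mean was 94.8 CPM. *Taok2*, a kinase upstream of stress-activated MAP kinases, had the smallest p of all genes. It was at 117, 113, 99.7 and 112 CPM in Del/+ and at 213, 219, 213 and 224 CPM in Del/Dup (log2 fold change 0.98 ± 0.04 SE, adjusted p = 1.6e-11). Del/Dup *Taok2* reached 98.3% ± 2.39 (SD, n = 4) of the wt mean. *Kctd13*, an adaptor of the CUL3 ubiquitin ligase that targets RHOA, stood at 50.7, 37.7, 41.3 and 36.1 CPM in Del/+ and at 63.6, 85.3, 77.4 and 78.6 CPM in Del/Dup. Del/Dup replicate 2 was the lowest of its group and still above every Del/+ library, and the log2 fold change was 0.88 ± 0.09 (SE, adjusted p = 3.1e-06). *Ppp4c*, the catalytic subunit of protein phosphatase 4, was at 12.6 to 15.6 CPM in Del/+ and 26.3 to 30.0 CPM in Del/Dup (log2 fold change 0.95 ± 0.08 SE, adjusted p = 2.0e-07).

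The neuronal genes *Prrt2*, *Sez6l2* and *Doc2a* of the interval were all higher in Del/Dup. *Prrt2*, a presynaptic protein that restrains transmitter release and whose loss causes paroxysmal dyskinesia in humans, was at 71.5, 75.1, 64.6 and 74.6 CPM in Del/+ and at 131, 145, 134 and 133 CPM in Del/Dup. Its log2 fold change was 0.93 ± 0.05 (SE, adjusted p = 7.2e-10). The Del/Dup level of *Prrt2* was 85.4% ± 4.07 (SD, n = 4) of the wt mean, and all 4 Del/Dup libraries lay below the lowest wt library at 153 CPM. Against wt the difference was -0.23 ± 0.05 (SE, adjusted p = 0.071) and did not pass the test. *Sez6l2*, a membrane protein of neurons, was at 273, 231, 257 and 222 CPM in Del/+ and at 375, 516, 463 and 484 CPM in Del/Dup. The groups did not overlap, the log2 fold change was 0.90 ± 0.09 (SE, adjusted p = 1.7e-06), and the Del/Dup level was 83.0% ± 10.9 (SD, n = 4) of the wt mean. *Doc2a*, a calcium sensor of spontaneous and asynchronous release, was at 4.36, 7.26, 4.21 and 5.91 CPM in Del/+ and at 15.7, 10.1, 12.7 and 10.6 CPM in Del/Dup. Its replicates were the most scattered of the synaptic members, and the difference of 1.18 ± 0.20 on the log2 scale (SE, adjusted p = 0.0079) passed in 23 of 30 other fits. Among the fits in which *Doc2a* did not pass were those without Del/Dup replicate 2, Del/+ replicate 1 or Del/+ replicate 3.

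Of the metabolic members, *Aldoa*, *Cdipt* and *Fam57b* were higher in Del/Dup, while *Qprt* and *Sult1a1* did not pass the test. *Aldoa*, an aldolase of glycolysis, was at 794, 694, 680 and 668 CPM in Del/+ and at 1224, 1284, 1299 and 1298 CPM in Del/Dup. The log2 fold change of *Aldoa* was 0.85 ± 0.05 (SE, adjusted p = 1.1e-09), and its Del/Dup level was 90.6% ± 2.53 (SD, n = 4) of the wt mean. *Cdipt*, which makes phosphatidylinositol, differed by 0.92 ± 0.07 on the log2 scale (SE, adjusted p = 2.3e-08), and *Fam57b*, a membrane protein of sphingolipid metabolism, by 0.91 ± 0.08 (SE, adjusted p = 1.2e-06). *Qprt*, an enzyme of NAD synthesis from quinolinate, rested on 10 to 31 reads per library and stood at 0.80, 0.41, 0.29 and 0.83 CPM in Del/+ and at 0.98, 1.10, 1.21 and 0.78 CPM in Del/Dup. The groups overlapped, and its log2 fold change of 0.73 ± 0.25 (SE) did not pass the test (adjusted p = 0.39).

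*Sult1a1* (ENSRNOG00000019342), a sulfotransferase of phenols and catecholamines and the first gene of the interval, stayed at the level of Del/+. It stood at 3.43, 3.36, 3.45 and 2.98 CPM in Del/+ and at 3.22, 3.40, 2.80 and 2.94 CPM in Del/Dup, from 82 to 131 and 65 to 75 reads. The ranges overlapped, and the log2 fold change was -0.10 ± 0.10 (SE, adjusted p = 0.85). The wt libraries lay at 6.68 to 8.11 CPM, above every library of both groups, and the Dup/+ libraries at 6.35 to 7.51 CPM, within or just below the wt range despite 3 nominal copies. As a percentage of the wt mean, *Sult1a1* was at 45.1% ± 2.97 (SD, n = 4) in Del/+ and at 42.2% ± 3.69 (SD, n = 4) in Del/Dup. Its neighbour *Slx1b*, subunit of a structure-specific DNA endonuclease, showed one of the largest differences. *Slx1b* was at 13.0, 13.0, 11.7 and 13.0 CPM in Del/+ and at 25.7, 31.1, 28.4 and 30.0 CPM in Del/Dup (log2 fold change 1.18 ± 0.06 SE, adjusted p = 2.5e-11). The Del/Dup level of *Slx1b* was 111% ± 9.15 (SD, n = 4) of the wt mean.

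**Figure D2:**
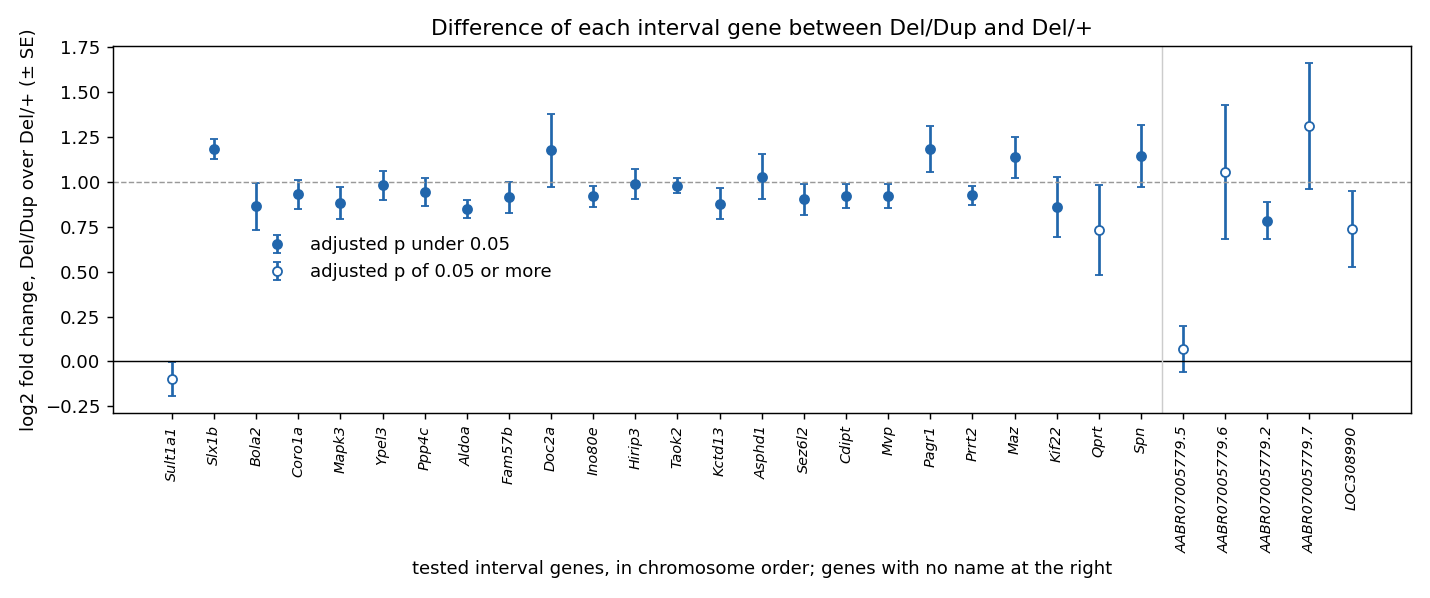
Log2 fold change of Del/Dup over Del/+ with its standard error (y axis) for the 29 tested interval genes in chromosome order, genes with no name at the right (x axis). Filled points passed an adjusted p under 0.05 and open points did not; the dashed line at 1 is a doubling. The step from *Sult1a1* at -0.10 to *Slx1b* at 1.18 is at the left end.

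With all libraries, the 5 tested members with roles in the nucleus were called. *Ino80e*, a subunit of the INO80 chromatin remodeller, was the tightest, at 17.1 to 21.0 CPM in Del/+ and 36.0 to 37.2 CPM in Del/Dup (log2 fold change 0.92 ± 0.06 SE, adjusted p = 1.9e-09). *Hirip3*, a histone chaperone, differed by 0.99 ± 0.08 on the log2 scale (SE, adjusted p = 2.0e-07), and *Pagr1*, a component of a histone methyltransferase complex, by 1.18 ± 0.13 (SE, adjusted p = 1.3e-05). *Maz*, a zinc finger transcription factor, was at 12.7 to 17.6 CPM in Del/+ and 27.0 to 40.0 CPM in Del/Dup (log2 fold change 1.14 ± 0.11 SE, adjusted p = 3.1e-06). *Kif22*, a chromokinesin of dividing cells, rested on 14 to 25 reads in Del/+ and 17 to 35 in Del/Dup. Its levels of 0.57 to 0.67 CPM and 0.89 to 1.36 CPM did not overlap, and the call (0.86 ± 0.17 SE, adjusted p = 0.031) was kept in 18 of 30 other fits. Of the fits that left out 1 of the 8 compared libraries, only that without Del/Dup replicate 3 kept the *Kif22* call. *Tbx6*, a transcription factor of paraxial mesoderm, did not pass the filter, with 3 to 5 reads in Del/+ and 5 to 11 in Del/Dup. Without Del/+ replicate 4 it could be tested and was not called (1.06 ± 0.32 SE, adjusted p = 0.27).

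The remaining named members also differed by about a doubling. *Coro1a*, an actin-binding protein of leukocytes that neurons express too, was at 60.7, 42.8, 50.3 and 51.2 CPM in Del/+ and at 81.9, 108, 99.2 and 102 CPM in Del/Dup (log2 fold change 0.93 ± 0.08 SE, adjusted p = 6.8e-07). *Mvp*, the major vault protein, differed by 0.92 ± 0.07 (SE, adjusted p = 2.9e-08), *Ypel3*, a suppressor of growth, by 0.98 ± 0.08 (SE, adjusted p = 1.7e-07), and *Asphd1* by 1.03 ± 0.13 (SE, adjusted p = 8.5e-05). *Bola2*, which acts in iron-sulfur cluster transfer, differed by 0.86 ± 0.13 (SE, adjusted p = 0.0016), and a pseudogene of it in the RefSeq table could share its reads. *Spn*, the leukocyte sialoglycoprotein CD43 at the other end of the interval, was at 1.32, 0.94, 1.61 and 1.64 CPM in Del/+ and at 3.04, 3.04, 2.88 and 3.72 CPM in Del/Dup. The difference of *Spn* was 1.14 ± 0.17 (SE, adjusted p = 0.0013), and its Del/Dup level was 94.0% ± 11.1 (SD, n = 4) of wt.

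Genes known only by an identifier were less uniform. AABR07005779.2 (ENSRNOG00000020000) was called (log2 fold change 0.78 ± 0.10 SE, adjusted p = 0.00018). AABR07005779.5 (ENSRNOG00000054418) was at 5.55 to 7.93 CPM in Del/+, 6.70 to 7.69 CPM in Del/Dup and 5.37 to 6.97 CPM in wt, with no detectable difference (0.07 ± 0.13 SE, adjusted p = 0.93). Both were placed in the interval by the map of the study, and their position was not checked here. AABR07005779.6, AABR07005779.7 and LOC308990 had log2 fold changes of 1.05, 1.31 and 0.74 on 1 to 34 reads per library and did not pass (adjusted p = 0.42, 0.21 and 0.26). The 6 untested members were *Tbx6*, *Gdpd3*, *Zg16*, LOC102552638, AABR07005778.1 and AABR07005779.4, of which the last had no read in any of the 8 libraries. A count of 0 allows up to 3 reads in a library, or up to 0.0790 to 0.157 CPM.

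Without Del/+ replicate 4, 22 interval genes were called among 30 tested and the median log2 fold change was 0.94. Over all genes 0.199% were called in that fit. *Kif22* was the called interval gene that did not pass without it (0.90 ± 0.19 SE, adjusted p = 0.058). *Sult1a1* remained without a difference (-0.15 ± 0.10 SE, adjusted p = 0.76). Within the 7 libraries of high multi-mapped share, 18 interval genes were called, with a median of 0.95.

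The 16 tested of 20 genes listed as flanking the interval gave no call, with a median log2 fold change of 0.0038. Of these, 7 had an unadjusted p under 0.05, 4 higher and 3 lower in Del/Dup, against 8.48% of all tested genes. *Sgf29*, a chromatin reader of the SAGA complex, was at 8.82, 7.92, 9.27 and 9.14 CPM in Del/+ and at 7.29, 6.28, 6.51 and 8.31 CPM in Del/Dup (-0.31 ± 0.09 SE, adjusted p = 0.29). Its wt mean was 9.18 CPM and its Dup/+ mean 6.77 CPM. *Eif3c*, a translation initiation factor subunit, was at 199.7 to 221 CPM in Del/+ and 176 to 199 CPM in Del/Dup (-0.15 ± 0.05 SE, adjusted p = 0.31). Against wt, at 215 to 232 CPM, *Eif3c* was called lower in Del/Dup (-0.27 ± 0.04 SE, adjusted p = 0.013), while Dup/+ had a mean of 233 CPM. *Atxn2l* (0.18 ± 0.07 SE, adjusted p = 0.47) and *Spns1* (0.18 ± 0.07 SE, adjusted p = 0.46) were among those with the higher values in Del/Dup, and their groups did not overlap. *Lat*, a T cell adaptor, was measured on 1 to 13 reads per library (1.17 ± 0.36 SE, adjusted p = 0.31).

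Outside the interval the test was passed by 4 genes, of which 3 had a higher level in CPM in Del/Dup and 1 a lower one. *Abca7*, a lipid transporter that is a risk gene for Alzheimer disease, was at 32.6, 31.2, 32.5 and 33.7 CPM in Del/+ and at 37.9, 40.4, 42.3 and 37.6 CPM in Del/Dup. The groups lay apart by a narrow gap (log2 fold change 0.28 ± 0.05 SE, adjusted p = 0.0096), and the wt libraries lay between them at 34.7 to 37.4 CPM. *Ddit4*, a stress-induced inhibitor of mTORC1 also known as REDD1, was at 14.7, 15.0, 17.3 and 15.0 CPM in Del/+ and at 22.6, 18.9, 22.4 and 20.8 CPM in Del/Dup. Its log2 fold change was 0.45 ± 0.09 (SE, adjusted p = 0.026). The wt mean of 18.8 CPM lay between the groups, but the wt libraries at 17.4 to 21.9 CPM overlapped those of Del/Dup. *Irf3*, a transcription factor of the interferon response, was at 7.99, 9.84, 8.27 and 12.7 CPM in Del/+ and at 19.8, 14.7, 20.6 and 16.8 CPM in Del/Dup (0.88 ± 0.18 SE, adjusted p = 0.040). For *Irf3* the Del/Dup libraries stood above those of the 3 other groups, since wt reached 14.2 CPM and Dup/+ 11.7 CPM.

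The gene lower in Del/Dup was RF00017 (ENSRNOG00000051703), a member of the family of signal recognition particle RNAs, of which the genome holds many near-identical copies, so its counts are uncertain. It was at 7.27, 9.43, 8.37 and 5.51 CPM in Del/+ and at 2.94, 1.57, 2.999 and 3.13 CPM in Del/Dup (log2 fold change -1.48 ± 0.30 SE, adjusted p = 0.040). Each Del/+ library lay above each Del/Dup library, and also above each wt library, which spanned 1.84 to 4.93 CPM. The Dup/+ libraries spanned 2.51 to 7.08 CPM and overlapped those of Del/+. RF00017 was not called with the multi-mapped share as a covariate. All 4 of these genes were called together in 6 of the 30 other fits. None of them was called when Del/Dup replicate 4 or Del/+ replicate 2 was left out or when *Ttr* was added as a covariate, fits in which 948, 1132 and 1079 genes had an unadjusted p under 0.05 and 0, 2 and 0 other genes were called outside the interval. DESeq2, an alternative to edgeR, called 51 genes outside the interval, these 4 among them. *Abca7* kept its call in 24 of the 30, *Ddit4* in 20, *Irf3* in 15 and RF00017 in 12. These 30 include fits that left out a wt or Dup/+ library, which is not in the comparison. With 1 of the 8 compared libraries left out, RF00017 was called only without Del/+ replicate 4. *Ddit4* was then called only without replicate 3 of either group, and *Irf3* only without Del/Dup replicate 3 or Del/+ replicate 4. *Abca7* lost its call only without Del/Dup replicate 4 or Del/+ replicate 2.

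**Figure D3:**
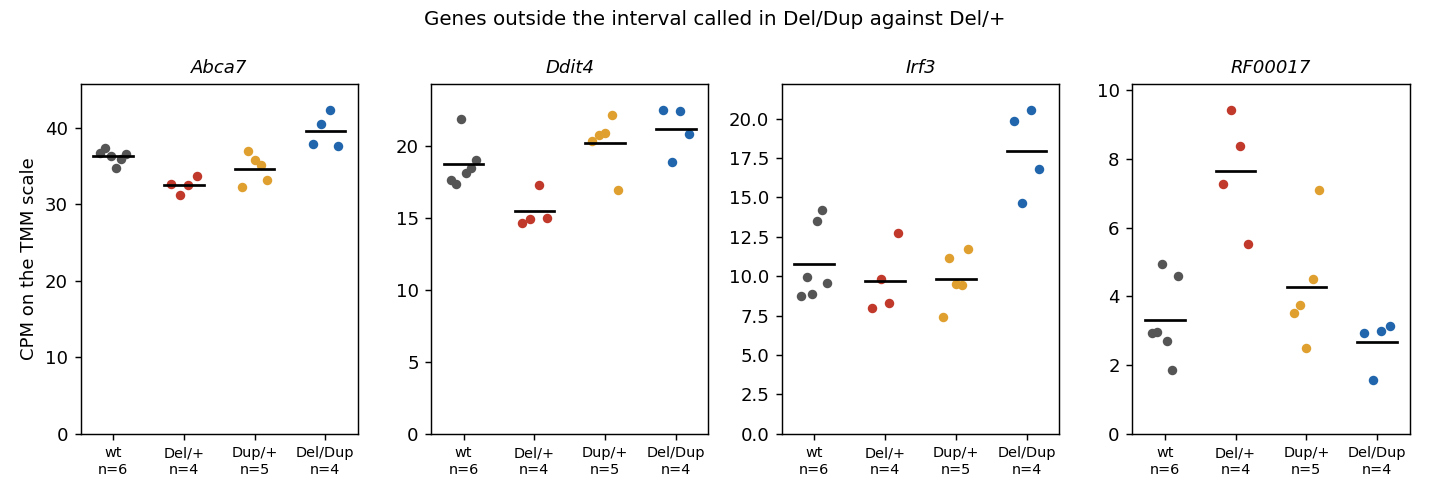
CPM on the scaled library size (y axis, from 0) of the 4 genes outside the interval called between Del/Dup and Del/+, in all 19 libraries by genotype (x axis). Points are libraries and bars group means. Del/+ and Del/Dup do not overlap in any panel, which goes with the choice of the genes by p. The wt mean lies between Del/+ and Del/Dup for *Abca7*, *Ddit4*, *Irf3* and RF00017.

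The 6 genes next in order of p were not called. They were AABR07070225.1 (0.91 ± 0.19 SE, adjusted p = 0.075), *Pcdhb5* of the clustered protocadherins (-0.44 ± 0.10 SE, adjusted p = 0.083), *Tia1*, an RNA-binding protein of stress granules (0.40 ± 0.09 SE, adjusted p = 0.10), *L3mbtl2*, a Polycomb-related protein (0.23 ± 0.05 SE, adjusted p = 0.10), *Snrnp70*, a protein of the U1 spliceosomal particle (0.47 ± 0.11 SE, adjusted p = 0.11), and the collagen gene *Col27a1* (1.06 ± 0.24 SE, adjusted p = 0.11). In each of the 6 the Del/+ and Del/Dup libraries did not overlap, which held for 4.37% of all tested genes. The 6 were picked by p in this same comparison, so that separation goes with the choice. For *Snrnp70* the wt mean of 77.9 CPM lay near the Del/+ mean of 74.9 CPM, and Del/Dup had a mean of 104 CPM. For *Col27a1* the means were 7.50 CPM in wt, 6.51 CPM in Del/+ and 13.7 CPM in Del/Dup.

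When Del/+ replicate 4 was left out, 9 genes outside the interval were called, 3 of them shared with the calls from all libraries (*Irf3*, *Abca7* and RF00017), and *Ddit4* was not called (adjusted p = 0.081). The other 6 were *Adamts10*, a protease of the extracellular matrix (0.57 ± 0.10 SE, adjusted p = 0.0075), *Col11a2* (0.67 ± 0.13 SE, adjusted p = 0.041), *Col16a1* (0.57 ± 0.11 SE, adjusted p = 0.043) and the T cell adaptor gene *Lime1* (1.03 ± 0.21 SE, adjusted p = 0.044), all higher in Del/Dup, and the growth factor gene *Vegfb* (-0.57 ± 0.11 SE, adjusted p = 0.019) and the medium neurofilament gene *Nefm* (-0.27 ± 0.05 SE, adjusted p = 0.029), both lower. For *Nefm*, Del/+ replicates 1 to 3 stood at 234, 241 and 234 CPM, replicate 4 at 184 CPM and Del/Dup at 194 to 204 CPM. For *Vegfb* the same replicates stood at 16.4, 18.9 and 18.2 CPM, replicate 4 at 13.6 CPM and Del/Dup at 9.27 to 13.6 CPM. These genes were picked by leaving out Del/+ replicate 4, so its place toward Del/Dup in them follows from the choice. The fit with the multi-mapped share as a covariate called 3 genes outside the interval, and the fit to the 7 libraries of high share called 5.

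**Figure D4:**
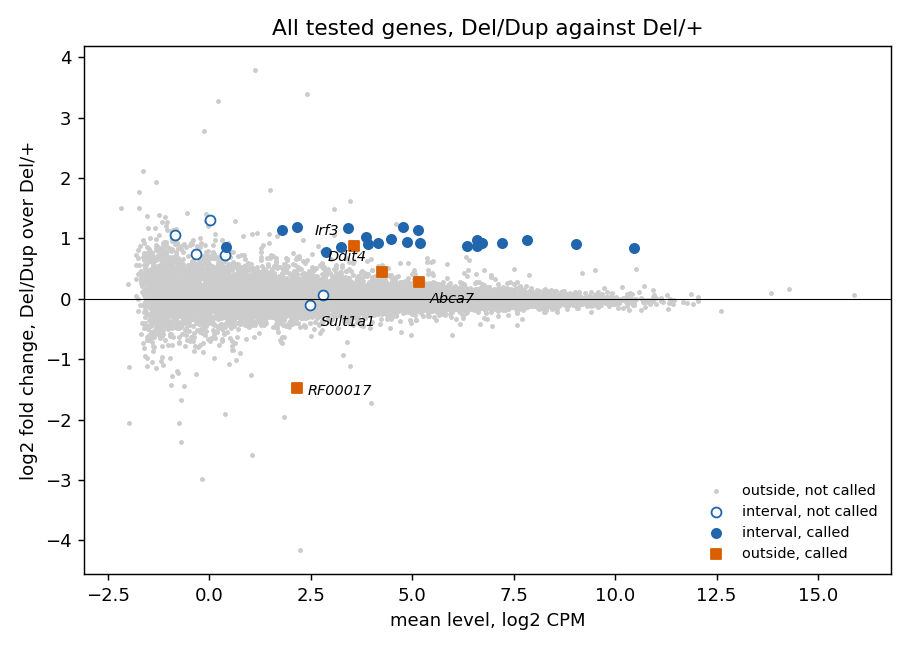
Log2 fold change of Del/Dup over Del/+ (y axis) against mean level in log2 CPM (x axis) for the 15440 tested genes. Filled blue points are the 23 called interval genes, open blue points the 6 that did not pass, orange squares the 4 called genes outside and grey points all others. The called interval genes form a band near 1 at every level of expression.

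No gene of the lists for pathways downstream of the interval passed the test, and with 0.175% of all tested genes called, a count of 0 in lists of these sizes is no result about them. An unadjusted p under 0.05 was reached by 8.48% of all tested genes. In the ERK pathway, 37 genes were tested, the median log2 fold change was -0.011 and 1 had an unadjusted p under 0.05, *Nras* (-0.17 ± 0.06 SE, adjusted p = 0.42). Among 18 genes around CUL3 and RHOA the median was -0.036 and 2 had an unadjusted p under 0.05, both lower in Del/Dup. The smaller p was that of *Cfl1*, the actin-severing protein cofilin, at 316 to 394 CPM in Del/+ and 302 to 332 CPM in Del/Dup, with overlap (-0.17 ± 0.06 SE, adjusted p = 0.36). *Rhoa* itself, the small GTPase degraded through KCTD13 and CUL3, was at 167 to 173 CPM in Del/+ and 159 to 164 CPM in Del/Dup, apart by a small gap (-0.09 ± 0.04 SE, adjusted p = 0.54). *Cul3* was at 208 to 211 CPM and 189 to 209 CPM. Of 41 synaptic genes 7 had an unadjusted p under 0.05, 3 higher and 4 lower, with a median of -0.014. The smallest p among them was that of *Gabrb2*, a GABA-A receptor subunit, at 87.6 to 98.4 CPM in Del/+ and 76.6 to 84.3 CPM in Del/Dup (-0.23 ± 0.07 SE, adjusted p = 0.27), with a wt mean of 76.4 CPM.

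Among 15 immediate-early genes, which neurons switch on within minutes of activity, 14 had a value above 0 and the median was 0.27, but none was called and the groups overlapped for every one. *Egr2* was at 1.90, 3.32, 2.13 and 2.07 CPM in Del/+ and at 9.95, 2.62, 5.57 and 1.998 CPM in Del/Dup, so that Del/Dup replicates 2 and 4 alone stood out (log2 fold change 1.082 ± 0.41 SE, adjusted p = 0.45). The same 2 libraries were the highest of Del/Dup for *Fosb*, at 10.3 and 7.79 CPM, and for *Arc*, at 190 and 142 CPM. Among 15 clock genes the median was -0.012, with 6 above 0 and 9 below. An unadjusted p under 0.05 was reached by 1 of them, against 8.48% of all tested genes. This was *Per2*, at 34.7 to 47.9 CPM in Del/+ and 49.1 to 50.6 CPM in Del/Dup (0.26 ± 0.08 SE, adjusted p = 0.26).

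Marker lists of cell types gave no call either. Of 14 oligodendrocyte markers 13 were below 0, with a median of -0.13, and the summed level spanned 6595 to 9868 CPM in Del/+ and 6517 to 7928 CPM in Del/Dup. The smallest p of that list was that of *Opalin*, at 99.3, 142, 114 and 174 CPM in Del/+ and 105, 91.1, 98.2 and 103 CPM in Del/Dup (-0.41 ± 0.13 SE, adjusted p = 0.31). Among markers of the thalamus, those with an unadjusted p under 0.05 were *Tcf7l2* (-0.61 ± 0.17 SE, adjusted p = 0.22) and *Prkcd* (-0.93 ± 0.31 SE, adjusted p = 0.36). *Prkcd* was at 18.1, 14.0, 28.3 and 7.44 CPM in Del/+ and at 14.0, 5.18, 10.3 and 6.07 CPM in Del/Dup, with overlap. The medians were 0.03 over 10 astrocyte, 0.07 over 12 microglia, 0.02 over 12 vascular and meningeal, 0.15 over 5 blood, 0.35 over 10 choroid plexus and -0.10 over 9 ependymal markers. Over 7 striatum and thalamus markers it was 0.10.

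Levels relative to wt were then set side by side for genes outside the interval. These values share their wt libraries with one another and their Del/+ libraries with the comparison above, so they are a description. The multi-mapped share was 40.1% to 47.6% in wt, below every Del/Dup library and Del/+ replicates 1 to 3 but not replicate 4, and its part in the differences from wt was not tested. Of all tested genes 0.771% differed in Del/+ against wt, 93 of them outside the interval, and 0.0907% in Del/Dup against wt, 13 of them outside. The 47 outside genes higher in Del/+ had a median log2 difference from wt of 0.43 in Del/+ and 0.23 in Del/Dup. The 46 lower ones had medians of -0.29 and -0.15. Chosen the other way, the 7 outside genes called higher in Del/Dup had medians of 1.83 in Del/Dup and 0.95 in Del/+, and the 6 lower ones -0.34 and -0.11. By these medians the group on which genes were chosen lay further from wt in either choice. Gene by gene this did not hold for all of the 7, of which 3 were higher and 4 lower in Del/Dup than in Del/+. Nothing about a return toward wt can be read from these medians. Of the 93 genes 1, RF00017, passed the test between Del/Dup and Del/+, and 5 were called against wt in both groups.

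Some of the genes most different from wt had means on the same side of it in both groups. AABR07006310.1 was at 27.7, 24.98, 29.7 and 30.7 CPM in Del/+ and at 6.50, 22.0, 26.02 and 40.1 CPM in Del/Dup, against a wt mean of 4.80 CPM. Del/Dup replicate 2 was close to wt while the other 7 libraries were not, and Dup/+ had a mean of 25.6 CPM. *Cd9*, a tetraspanin of myelinating cells, was at 54.5 to 63.5 CPM in Del/+ and 48.8 to 57.6 CPM in Del/Dup, above the wt range of 39.8 to 46.7 CPM. The 14 oligodendrocyte markers had a median log2 difference from wt of 0.31 in Del/+ and 0.17 in Del/Dup, with a summed level of 5636 to 7254 CPM in wt. The 10 tested choroid plexus markers had medians of 3.01 and 3.31, with a summed level of 5.71 to 38.8 CPM in wt, and the part of either list in the differences from wt was not tested. *Mical2*, an actin-oxidising enzyme, was at 312 to 357 CPM and 305 to 345 CPM, below the wt range of 383 to 439 CPM, with a difference between Del/Dup and Del/+ of -0.03 ± 0.06 (SE, adjusted p = 0.94). AABR07015081.2 was at 18877, 22705, 10129 and 1686 CPM in Del/+ and at 7617, 15229, 15487 and 8150 CPM in Del/Dup, against a wt range of 394 to 2559 CPM, within which Del/+ replicate 4 lay. Its difference between Del/Dup and Del/+ was -0.20 (adjusted p = 0.96), and 0.20 (adjusted p = 0.92) with the multi-mapped share as a covariate.

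For other genes the levels relative to wt lay further apart, though the difference between Del/Dup and Del/+ did not pass the test. *Mybpc1*, a myosin-binding protein, was at 2.11, 4.31, 2.68 and 2.98 CPM in Del/+ and at 1.87, 1.52, 1.64 and 1.29 CPM in Del/Dup, and the groups did not overlap (-0.90 ± 0.25 SE, adjusted p = 0.22). AABR07070225.1 stood at 34.9% ± 10.3 (SD, n = 4) of wt in Del/+ and at 69.1% ± 7.54 (SD, n = 4) in Del/Dup, and AABR07044711.1 at 93.6% ± 6.24 (SD, n = 4) and 77.7% ± 7.29 (SD, n = 4).

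**Figure D5:**
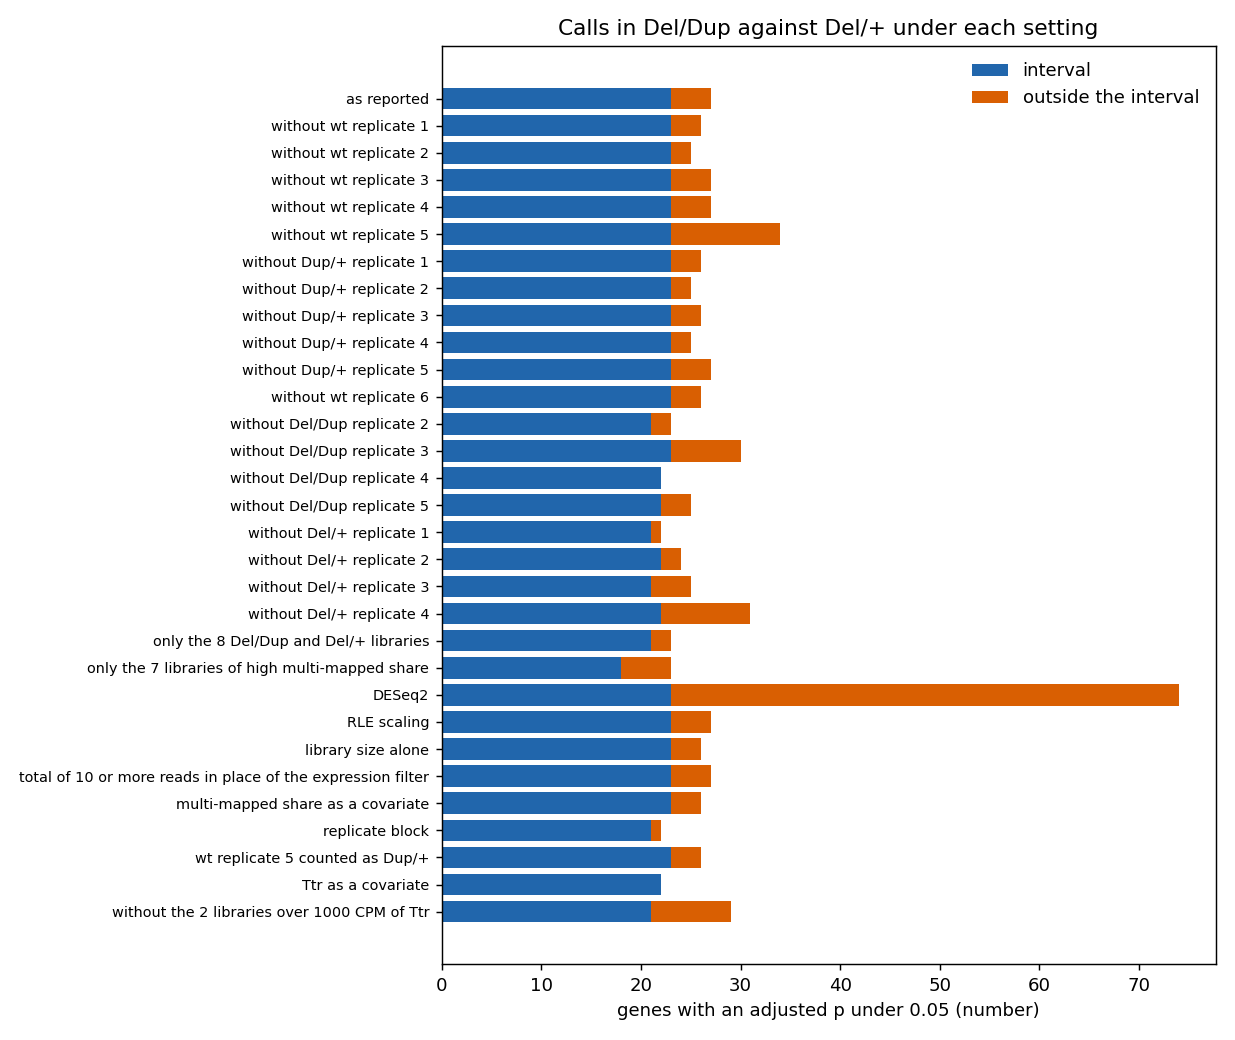
Number of genes called between Del/Dup and Del/+ (x axis) as reported and in 30 other fits (y axis), inside the interval (blue) and outside it (orange). Between 18 and 23 interval genes were called in every fit, while the number outside ran from 0 to 51.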

How the data were processed

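The 8 libraries compared, with the 11 others in the same fit, were hippocampal RNA-seq libraries of 1 male rat each. Groups and replicate numbers were those of the description in the labels. For wt replicate 5 another label field gives Dup/+. Its median level over the interval genes was 97.4% of the wt mean, against 139% to 149% in the Dup/+ libraries. The authors made stranded libraries (rRNA removal per the labels, polyA RNA in another field), sequenced single-end reads of 50 bases, aligned them with HISAT2 to rn6 and counted them with HTSeq, and the deposited values are raw counts per Ensembl gene with no normalization, of which reads at more than 1 place were left out. Demultiplexing used bcl2fastq 2.17.1.14 according to the submitters' processing notes.

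From these counts, 15440 of 32623 genes passed filterByExpr. Libraries were scaled by TMM, and edgeR 4.0.16 in R 4.3.3 was fitted to all 19 libraries with a mean per group (quasi-likelihood F test, prior count 2 for fold changes, Benjamini-Hochberg adjusted p under 0.05). Standard errors were derived from the F statistic. CPM values are on the scaled library size, and a gene's CPM is not per length. The genes named singly are every interval gene, the called genes and up to 10 in all of smallest p outside it, up to 5 of smallest p in each comparison with wt, and list members of smallest p. Other genes were chosen after their values were seen: *Prox1*, *Neurod6*, *Fibcd1*, *Ttr*, *Arc*, *Rhoa*, *Cul3*, *Atxn2l*, *Spns1* and the genes called without Del/+ replicate 4. The members and gene lists were chosen with earlier results of these data known. Alternatives were DESeq2 1.42.0, other scaling and filtering, covariates, fewer libraries and leaving out each library. No rn6 gene model was used here. The spread between libraries amounted to a biological coefficient of variation of 0.101 in common. Depth was 19464204 to 37964381 reads in these 8 libraries. The floor for a count of 0 covers counting error only, while standard errors and SDs include the spread between libraries.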

Additional observations from a re-analysis of the deposited data

Results flagged for a closer look

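Of 100 sets of 4 libraries (47 gene levels and 3 other measures in Del/+ and Del/Dup each), 5 held a library whose distance from the nearest of the others passed the 95% critical value of Dixon's test, and chance alone flags about 1 in 20. In Del/+ replicate 3, *Slx1b* was at 11.7 CPM against 13.0 in each of the other 3, *Asphd1* at 7.37 CPM against 7.54 to 7.55, and *Ddit4* at 17.3 CPM against 14.7 to 15.0. In Del/Dup replicate 3, *Prrt2* was at 145 CPM against 131 to 134, and RF00017 at 1.57 CPM against 2.94 to 3.13. For *Ddit4* the high library lay toward Del/Dup, and for RF00017 the low one lay away from Del/+, without which the log2 fold change was -1.31 (adjusted p = 0.13).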

How the results depend on the processing

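The 23 interval calls were 21 to 23 when each of the 19 libraries was left out in turn and 18 to 23 in the 11 other fits, and 18 genes were called in all 30. The exceptions were *Kif22*, *Doc2a*, *Spn*, *Bola2* and AABR07005779.2. The median interval log2 fold change stayed between 0.88 and 0.96, and was 0.92 without AABR07005779.5. Calls outside the interval depended on the setting. Their number was 0 to 11 with a library left out (0 without Del/Dup replicate 4, 1 without Del/+ replicate 1, 2 without wt replicate 2, Dup/+ replicate 2, Dup/+ replicate 4, Del/Dup replicate 2 or Del/+ replicate 2, 7 without Del/Dup replicate 3, 9 without Del/+ replicate 4 and 11 without wt replicate 5). It was 2 with only the 8 libraries, 51 with DESeq2 (74 genes in all), 0 with *Ttr* as a covariate and 8 without the 2 libraries over 1000 CPM of *Ttr*, the last 2 fits added after the data were seen. All calls together numbered 22 to 34 with a library left out. The cause was not tested.

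The replicate numbers do not pair the samples: the correlation of deviations from group means was 0.06, 0.03 and -0.09 for the 3 same-numbered pairs. A replicate block gave 21 interval calls and 1 outside, 22 in all, with a median of 0.96.

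No gene that was called changed sign. Among uncalled genes, with a library left out, AABR07005779.5 ran from -0.023 (without Del/+ replicate 3) to 0.15, AABR07006310.1 from -0.63 to 0.056 (without Del/Dup replicate 2), AABR07015081.2 from -0.57 to 0.19 (above 0 without Del/+ replicate 1, at 0.013, or 2) and *Mical2* from -0.068 to 0.0084 (above 0 without Del/Dup replicate 3, or Del/+ replicate 2 at 0.0024). Without the 2 libraries of high *Ttr*, AABR07005779.5 was at -0.039 and AABR07006310.1 at 0.079. AABR07015081.2 was at 0.20 with the multi-mapped share as a covariate and at 0.31 with *Ttr* as one. The difference in multi-mapped share ran from -6.83 to 4.73 percentage points with a library left out, negative without Del/Dup replicate 3 (-0.955) or 4 (-1.58) or Del/+ replicate 4 (-6.83). That in log2 total ran from -0.60 to -0.39, and without Del/+ replicate 2 it was -0.60 (exact permutation p = 0.0286).

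*Qprt*, *Kif22* and *Lat* rested on at most 35 reads per library, and the part of depth in their tests was not tested. With 4 libraries a group, a permutation test cannot go below 0.0286.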
